A study of Homo sapiens with 27 samples.

Results

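The genes described here are 33 genes of the antioxidant response governed by the transcription factor NRF2, chosen by name as a list of its regulators, its known targets and the neighbouring antioxidant enzymes. They were found in the scanner output of 27 arrays through the gene name, an older name or the transcript of each spot, at 47 array features on the array design shared by 8 compounds and 48 on the design used for the remaining one. All 33 were measured and tested, among 17292 genes on the shared design and 14393 on the other. The values did not enter the choice of names, although the list was drawn up with earlier results of these data known.

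In unstressed cells NRF2, encoded by NFE2L2, is held in the cytoplasm by KEAP1 and sent to the proteasome. Electrophiles and oxidants modify cysteines of KEAP1, NRF2 then accumulates, pairs with a small MAF protein and binds antioxidant response elements near genes for glutathione synthesis, thioredoxin recycling, NADPH supply, haem breakdown and quinone reduction. In liver this programme works beside the aryl hydrocarbon receptor (AHR), which binds many polycyclic aromatic hydrocarbons and turns on the CYP1 enzymes that oxidise them, in part to quinones and epoxides.

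The cells were HepG2, a line from a human hepatocellular carcinoma, treated for 48 h with 1 of 9 polycyclic aromatic hydrocarbons. BaP stood for benzo[a]pyrene, BF for benzo[k]fluoranthene, CHR for chrysene, BA for benzo[a]anthracene, DBA for dibenzo[a,h]anthracene, IND for indeno[1,2,3-c,d]pyrene, NP for naphthalene, PH for phenanthrene and 3MC for 3-methylcholanthrene. Each compound had 3 arrays on which RNA of treated cells, in the red dye Cy5, was hybridised against RNA of DMSO-treated (solvent control) cells, in the green dye Cy3. The labels name no dose, so the compounds are compared as they were applied. The dyes were never swapped and it is not stated whether the 3 arrays came from separate cultures, so the p-values reflect array-to-array spread alone, possibly of technical origin.

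A value below is the log2 ratio of compound over DMSO on an array after background correction and loess normalisation, so that 1 is a doubling and 0 is no difference. A gene is said to have risen or fallen when limma's moderated test gave an adjusted p under 0.05, by Benjamini and Hochberg over all genes, and the mean ratio of 3 arrays reached 1.5-fold. Median spot signals ranged from 68 to 1535 intensity units over arrays and dyes and were lowest, 68 to 86, on the DBA arrays. The 3 arrays of a compound correlated at 0.905 or more over all genes, except that BA array 1 correlated at 0.176 and 0.126 with the other BA arrays, which correlated at 0.863 with each other. The 33 ratios had medians of 0.30 and 0.33 on BA arrays 2 and 3 and of -0.05 on BA array 1, so the BA counts, and each BA call that depends on that array, are also given without it. The 8 hepatocyte markers checked stood above background in the DMSO channel on 26 or 27 of the 27 arrays. Of these 8, all fell with BF, 6 with IND, 5 with BaP, 4 with CHR, 3 with NP and DBA, 2 with 3MC and 1 with PH and BA, and 4 with BA when array 1 was left out. Others of the 8 rose, 2 with CHR and 1 each with NP, PH, 3MC and DBA. The shares of all genes that rose or fell with each compound are given below. The part of these markers in the results below was not tested.

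The antioxidant genes rose more often than genes at large with every compound, and the number that rose was highest with IND and BF. With IND 25 of the 33 rose and 1 fell, where 10.5% of all genes tested rose and 13.2% fell. With BF 20 rose and 2 fell, against 16.0% and 20.4% of all genes. The median ratio of the 33 genes was 0.99 with IND and 0.91 with BF, and that of all genes was 0.02 and -0.01.

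Chrysene, phenanthrene, naphthalene and benzo[a]pyrene formed a middle range. With CHR 16 of the 33 genes rose and 1 fell, beside 11.7% and 12.3% of all genes. With PH 15 rose and 1 fell, beside 10.6% and 7.90%. With NP 14 rose (42.4%) and 5 fell (15.2%), beside 6.71% and 12.6%. These were the most falls of any compound, but their share was near that of all genes. With BaP 12 rose and 1 fell, beside 15.1% and 10.0%. Their medians were 0.55, 0.42, 0.36 and 0.44, in the same order.

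The fewest rises were seen with DBA, 3MC and BA. With DBA 8 rose and 2 fell, where 3.08% of all genes rose and 7.26% fell, and the median was 0.37. With 3MC 8 rose and 3 fell, where 3.68% rose and 7.48% fell, and the median was 0.12, the lowest of the 9. With BA 3 rose and none fell, where 2.05% rose and 3.11% fell, and the median was 0.25. By limma at an unadjusted p under 0.05 and with no fold limit, 3 of the 33 were lower with BA than in DMSO. Without BA array 1 the number that rose with BA was 9, where 4.55% of all genes rose. The DBA count was 20 when arrays were centred on their median in place of loess. Rises with DBA also became more frequent over all genes under median centring, where 1601 genes rose. They made up 71.1% of all DBA calls, against 29.8% after loess. The part of this wider shift in the count of 20 was not tested.

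**Figure D1:**
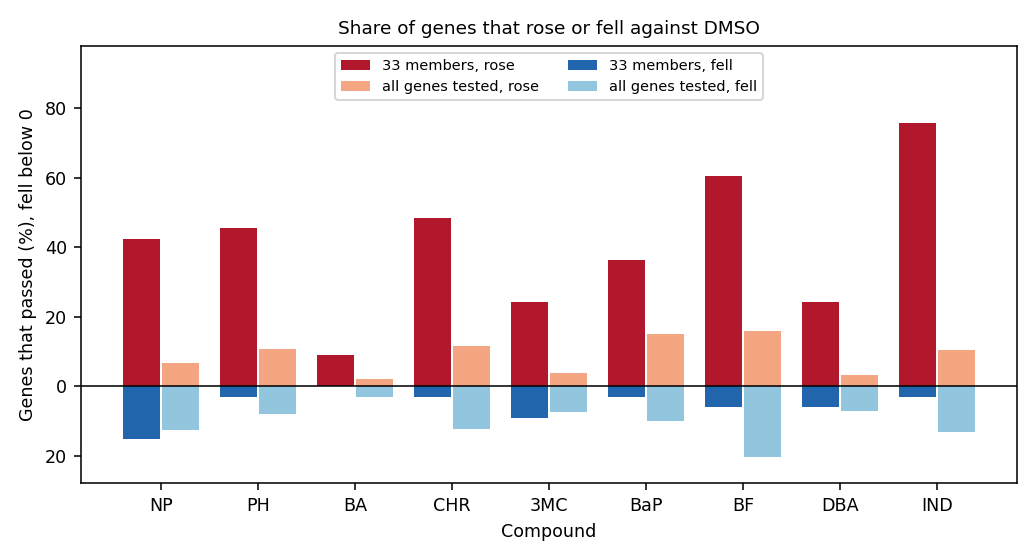
Percent of the 33 antioxidant genes (dark bars) and of all genes tested (light bars) that rose (upward) or fell (downward) with each compound against DMSO, 3 arrays each. The upward bar of the 33 genes is the taller of the pair with all 9 compounds, by the widest margin with IND, where 25 of 33 rose beside 10.5% of all genes.

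Over the 297 pairs of gene and compound, 121 rose, 16 fell and 160 did not pass. SRXN1 and TXNRD1 rose with all 9 compounds, and SQSTM1 and BLVRB with all but BA, with which they rose when BA array 1 was left out. Another 5 genes, GCLM, GCLC, TALDO1, MAFF and MAFK, rose with 5 or 6 compounds, 22 with 1 to 4, and CAT and ME1 with none. Of the 10 genes that fell with a compound, 9 rose with another, and CAT alone fell without rising anywhere.

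**Figure D2:**
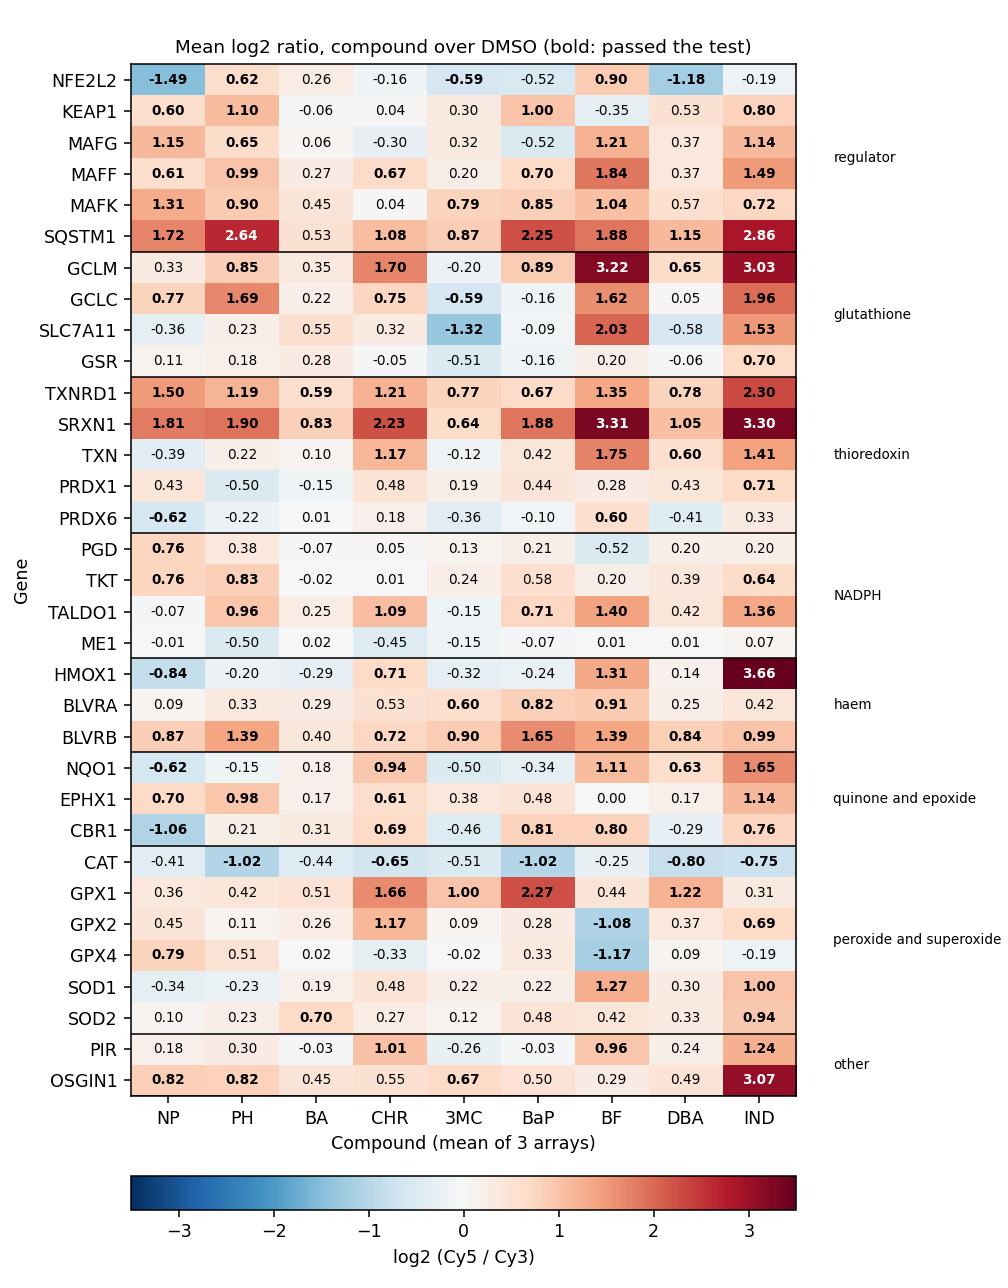
Mean log2 ratio of compound over DMSO (3 arrays) of the 33 genes (vertical, grouped by role) with 9 compounds (horizontal), from blue (lower than in DMSO) to red (higher), with each value printed and those that passed the test in bold. The row of SRXN1 is bold and red throughout, from 0.64 with 3MC to 3.31 with BF, and the row of CAT is blue throughout.

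RefSeq promoter windows, 250 bases before to 50 after a start site in GRCh38.p14, were at hand for 26 of the 33 genes, 39 windows in all because some genes have several start sites. They were searched on both strands for TGACNNNGC, a strict core of the antioxidant response element, which stood in 11 of the 39 windows (28.2%), of 10 genes, and in 13.35% of all 35116 windows. The looser TGANNNNGC, which includes every match of the strict core, stood in 20 of the 39 (51.3%) and in 41.8% of all. GCGTG, the core bound by AHR, stood in 24 of the 39 (61.5%), of 19 genes, and in 36.5% of all. A match describes letters in a window and shows no binding, and elements farther away were not looked for.

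The stretches below hold the strict core in genes whose ratios differ widely, and show how the same letters sit before genes that rose often and before one that rose with no compound. Capitals mark the core, which on the opposite strand reads GCNNNGTCA, and positions count from the start site.
GCLM (chr1:93909431-93909504, minus strand, -74 to -1): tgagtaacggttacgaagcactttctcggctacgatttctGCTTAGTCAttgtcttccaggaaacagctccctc
TXNRD1 (chr12:104215640-104215728, plus strand, -139 to -51): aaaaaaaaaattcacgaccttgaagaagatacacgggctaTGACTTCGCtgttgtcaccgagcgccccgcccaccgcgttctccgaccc
TXNRD1 (chr12:104286890-104286978, plus strand, -142 to -54): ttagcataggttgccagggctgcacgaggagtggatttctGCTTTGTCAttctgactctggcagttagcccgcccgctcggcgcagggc
KEAP1 (chr19:10502772-10502865, minus strand, -94 to -1): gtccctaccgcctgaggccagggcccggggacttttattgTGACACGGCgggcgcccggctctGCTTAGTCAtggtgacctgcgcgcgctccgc
CBR1 (chr21:36069825-36069913, plus strand, -199 to -111): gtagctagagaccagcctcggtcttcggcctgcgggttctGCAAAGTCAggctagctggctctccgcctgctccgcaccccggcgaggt
GPX2 (chr14:64942819-64942907, minus strand, -162 to -74): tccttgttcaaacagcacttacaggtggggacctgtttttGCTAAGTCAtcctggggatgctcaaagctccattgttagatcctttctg
ME1 (chr6:83431140-83431228, minus strand, -177 to -89): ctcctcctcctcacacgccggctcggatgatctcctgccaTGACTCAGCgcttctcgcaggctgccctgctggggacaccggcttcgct

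GCLM, with a core close before its start site, rose with 6 compounds, TXNRD1, with a core before both of its start sites, with 9, and ME1 with none. KEAP1 holds the core at 2 places and rose with 4 compounds. SRXN1, with the highest ratios of the list with BF, had no strict or loose core in its window, which did hold GCGTG. The 10 genes with a strict core ranged from ME1, with no rise, to TXNRD1.

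The regulators of the pathway rose widely at the level of the small MAF genes and SQSTM1, while NFE2L2 itself went both ways. NFE2L2 encodes NRF2, which is controlled chiefly by protein stability. On the 3 arrays of each compound NFE2L2 stood at -1.47, -1.52 and -1.48 with NP, 0.53, 0.75 and 0.58 with PH, and 0.31, 0.24 and 0.23 with BA. The ratios were -0.32, -0.03 and -0.12 with CHR, -0.60, -0.59 and -0.59 with 3MC, and -0.49, -0.52 and -0.55 with BaP. They were 0.90, 0.84 and 0.95 with BF, -1.09, -1.24 and -1.22 with DBA, and -0.19, -0.14 and -0.22 with IND. The arrays of NP and DBA were the lowest and did not overlap those of any other compound or each other, and those of BF were all above those of PH.

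NFE2L2 rose 1.86-fold with BF (SE 0.05, adjusted p = 4.27e-13) and 1.54-fold with PH (SE 0.05, adjusted p = 5.39e-10). It fell with NP to -1.49 ± 0.03 (SD, n = 3) (SE 0.05, adjusted p = 5.02e-16), with DBA to -1.18 ± 0.08 (SD, n = 3), and with 3MC to -0.59 ± 0.01 (SD, n = 3). The call with 3MC lay near the 1.5-fold limit and was lost under 4 of the other settings, with ratios from -0.57 to -0.42. These values come from the brighter of the gene's 2 features. The other read -2.26 with BF, -1.12 with PH, -1.23 with CHR, -0.88 with IND and -0.76 with BA, opposite in sign to the first with BF, PH and BA, and -0.01 with NP. The mean of both gave -0.68 with BF and -0.25 with PH, so the rises with BF and PH rest on 1 feature. The falls with NP and DBA rest on that feature as well. With DBA the other read -0.07 and was mostly not above background.

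KEAP1 encodes the cysteine-rich adaptor that marks NRF2 for destruction. KEAP1 ratios were 0.55, 0.62 and 0.64 with NP, 1.21, 1.15 and 0.93 with PH, and 0.03, -0.14 and -0.08 with BA. Further values were 0.27, -0.02 and -0.14 with CHR, 0.30, 0.29 and 0.31 with 3MC, and 1.03, 1.01 and 0.97 with BaP. The last were -0.37, -0.34 and -0.33 with BF, 0.52, 0.56 and 0.51 with DBA, and 0.81, 0.76 and 0.84 with IND. All arrays of PH and BaP lay above all arrays of the other compounds. KEAP1 rose with PH to 1.10 ± 0.14 (SD, n = 3) (SE 0.06, adjusted p = 7.25e-13), with BaP to 1.001 ± 0.03 (SD, n = 3), with IND to 0.80 ± 0.04 (SD, n = 3) and with NP to 0.60 ± 0.05 (SD, n = 3), and the last was 0.37 under median centring and no longer passed. With BF it stood at -0.35 ± 0.02 (SD, n = 3) and did not pass.

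The level of KEAP1 in the DMSO channel moved with these ratios. It was 9.48 and 9.80 log2 units of normalised Cy3 intensity on the PH and BaP arrays and between 11.44 and 12.73 on those of the other 6 compounds of the shared design. In the treated channel it was 10.57 and 10.80 with PH and BaP, below the DMSO level of every other compound. Neither the labels nor the ratios tell whether the DMSO cells of these arrays differed, and the part of this in the rises was not tested.

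The small MAF proteins lack an activation domain of their own and give NRF2 its partner on DNA. MAFF stood at 0.50, 0.97 and 0.37 with NP, 0.94, 0.89 and 1.15 with PH, and -0.24, 0.54 and 0.52 with BA. It was at 0.68, 0.62 and 0.71 with CHR, 0.16, 0.29 and 0.16 with 3MC, and 0.76, 0.63 and 0.70 with BaP. It read 1.86, 1.75 and 1.90 with BF, 0.47, 0.27 and 0.37 with DBA, and 1.36, 1.57 and 1.53 with IND. MAFF arrays of BF lay above those of all other compounds, and those of IND came next and did not overlap the rest. MAFF rose with 6 compounds, from 0.61 with NP, a call lost under median centring (0.40) and without NP array 2 (0.43), to 1.84 ± 0.08 (SD, n = 3) with BF (3.58-fold, SE 0.11, adjusted p = 1.59e-12).

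MAFK was measured at 1.47, 1.49 and 0.96 with NP, 0.93, 0.80 and 0.98 with PH, and 0.38, 0.52 and 0.44 with BA. The values were 0.27, -0.09 and -0.06 with CHR, 0.88, 0.70 and 0.79 with 3MC, and 0.76, 0.81 and 0.97 with BaP. The remaining arrays gave 1.04, 1.07 and 1.02 with BF, 0.65, 0.47 and 0.59 with DBA, and 0.63, 0.77 and 0.75 with IND. NP array 3 lay among the arrays of BF, PH and BaP and the other 2 NP arrays lay above all others, and CHR arrays were the only ones spread around 0. MAFK rose with 6 compounds, most with NP at 1.31 ± 0.30 (SD, n = 3) (SE 0.08, adjusted p = 6.47e-12). With the mean of its features in place of the brightest, the calls with PH, 3MC, BaP and BF were lost, at 0.53, 0.40, 0.48 and 0.03. MAFG, described by its means, rose with BF (1.21), NP (1.15), IND (1.14) and PH (0.65) and stood at -0.52 with BaP, which did not pass and where a second feature of the gene read 0.32.

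SQSTM1 encodes p62, a selective autophagy receptor that can sequester KEAP1 and is itself a target of NRF2. SQSTM1 ratios were 1.74, 1.72 and 1.70 with NP, 2.59, 2.90 and 2.44 with PH, and -0.06, 0.95 and 0.70 with BA. They stood at 1.27, 1.06 and 0.91 with CHR, 0.80, 0.92 and 0.88 with 3MC, and 2.19, 2.29 and 2.28 with BaP. They reached 1.73, 1.97 and 1.93 with BF, 1.21, 1.10 and 1.13 with DBA, and 2.97, 2.84 and 2.76 with IND. Every array but BA array 1 was above 0, and the arrays of IND and PH were the highest and overlapped. SQSTM1 rose with 8 compounds, from 0.87 ± 0.06 (SD, n = 3) with 3MC to 2.86 ± 0.10 (SD, n = 3) with IND (7.25-fold, SE 0.05, adjusted p = 7.93e-08). Its Cy5 spot was saturated on 2 IND arrays and 1 BF array, so these ratios may read low. With BA it was 0.53 and did not pass, and without BA array 1 it rose, at 0.82. Averaging in a second feature that is mostly near background took the calls with CHR, 3MC and DBA below the fold limit, at 0.54, 0.44 and 0.57.

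**Figure D3:**
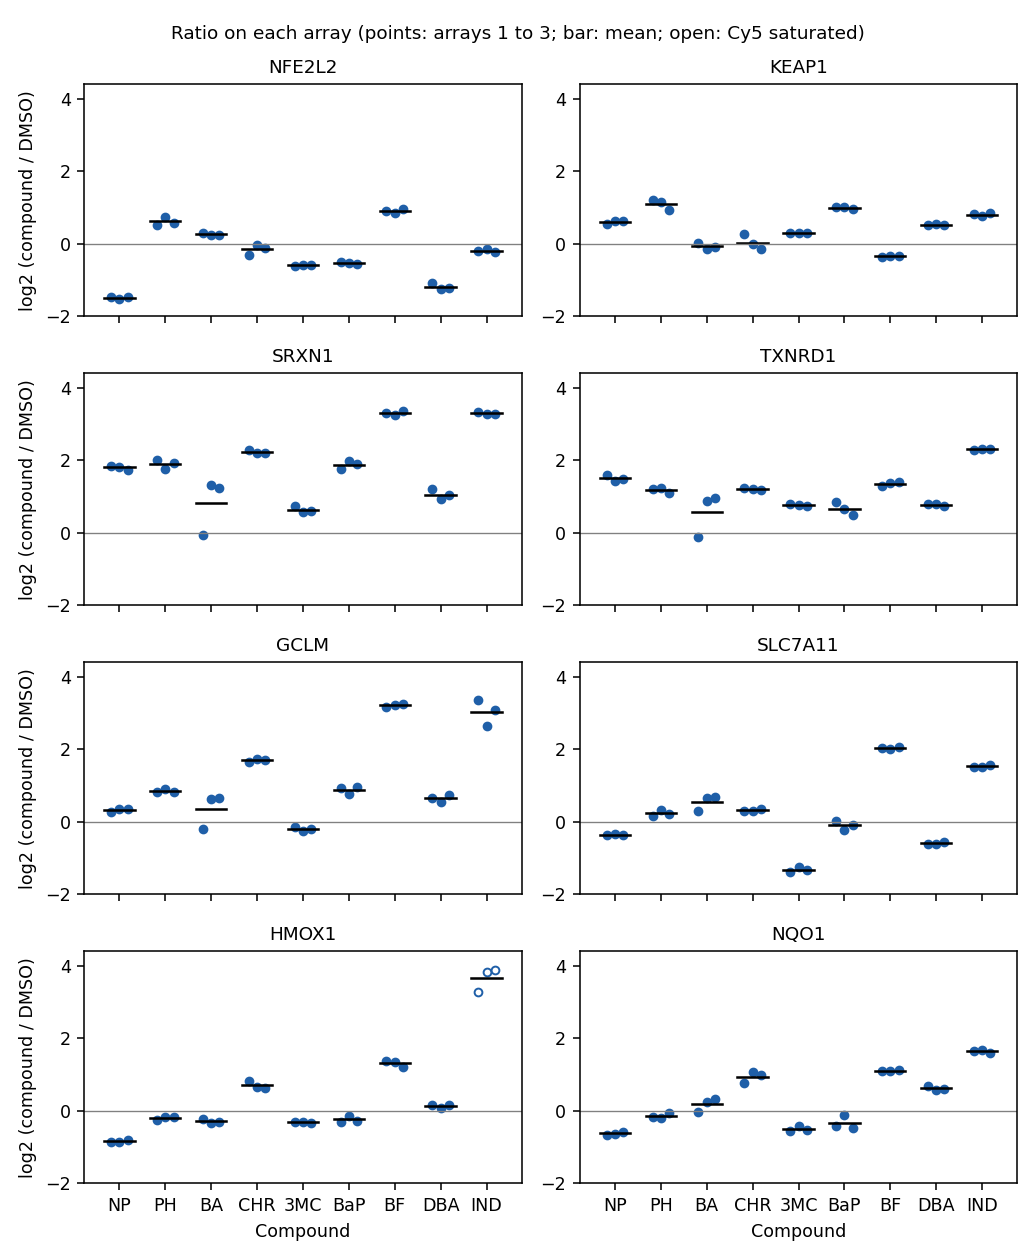
log2 ratio of compound over DMSO on each array (points) and the mean of 3 (bar) for 8 genes with 9 compounds, where open points mark arrays with a saturated Cy5 spot. SRXN1 and TXNRD1 lie above 0 on every array except BA array 1, NFE2L2 lies below 0 with NP, CHR, 3MC, BaP, DBA and IND, and HMOX1 stands apart with IND.

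Of the 4 genes of glutathione supply and recycling, all rose with IND and 3 with BF, and with 3MC none rose and 2 fell by limma. GCLC and GSR were read with IND from other features than with the other compounds. Their median ratio was 1.75 with IND, 1.83 with BF and -0.55 with 3MC. GCLM encodes the modifier subunit of glutamate-cysteine ligase, the rate-limiting enzyme of glutathione synthesis. GCLM ratios were 0.27, 0.36 and 0.35 with NP, 0.82, 0.91 and 0.83 with PH, and -0.21, 0.62 and 0.65 with BA. They were measured at 1.65, 1.74 and 1.72 with CHR, -0.13, -0.26 and -0.20 with 3MC, and 0.93, 0.78 and 0.96 with BaP. They then stood at 3.18, 3.22 and 3.25 with BF, 0.66, 0.54 and 0.73 with DBA, and 3.36, 2.66 and 3.08 with IND. BF and IND arrays overlapped each other and lay above all CHR arrays, which in turn lay above every array of the other 6 compounds.

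GCLM rose 9.3-fold with BF (3.22 ± 0.04 (SD, n = 3), SE 0.10, adjusted p = 2.56e-17) and 8.18-fold with IND (3.03 ± 0.35 (SD, n = 3)). The DMSO spot stood above background on 1 of the 3 BF arrays, which leaves the size with BF less certain. GCLM rose with CHR to 1.70 ± 0.05 (SD, n = 3), with BaP to 0.89 ± 0.10 (SD, n = 3), with PH to 0.85 ± 0.05 (SD, n = 3) and with DBA to 0.65 ± 0.09 (SD, n = 3). With 3MC it was -0.20 and with NP 0.33, neither of which passed. With BA it was 0.35 over all arrays and rose, at 0.64, without array 1.

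GCLC encodes the catalytic subunit of the same enzyme. GCLC read 0.84, 0.67 and 0.79 with NP, 1.71, 1.81 and 1.56 with PH, and 0.03, 0.30 and 0.33 with BA. Values with the next compounds were 0.68, 0.77 and 0.80 with CHR, -0.57, -0.62 and -0.56 with 3MC, and -0.36, -0.22 and 0.08 with BaP. With the last they were 1.65, 1.57 and 1.64 with BF, 0.11, 0.03 and 0.01 with DBA, and 2.02, 1.90 and 1.97 with IND. The subunits were ordered differently by compound: PH arrays of GCLC reached the level of BF, and NP arrays stood at the level of CHR. GCLC rose with IND to 1.96 ± 0.06 (SD, n = 3) (SE 0.04, adjusted p = 1.33e-07), with PH to 1.69 ± 0.13 (SD, n = 3) and with BF to 1.62 ± 0.04 (SD, n = 3), and less with NP (0.77) and CHR (0.75). The IND value comes from a second feature, which read 1.78 with PH and 1.71 with BF. The feature used for the other compounds read 1.39 with IND, below PH and BF, so the order of these depends on the feature. The call that it fell with 3MC (-0.59) lay at the fold limit and was lost under 4 other settings, at -0.56 to -0.52, and without 3MC array 2, at -0.57.

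SLC7A11 encodes the light chain of the cystine/glutamate antiporter xCT, which brings in the cystine for glutathione. SLC7A11 ratios were -0.37, -0.35 and -0.35 with NP, 0.16, 0.31 and 0.22 with PH, and 0.30, 0.67 and 0.69 with BA. Arrays of the next compounds gave 0.29, 0.31 and 0.37 with CHR, -1.40, -1.24 and -1.34 with 3MC, and 0.03, -0.23 and -0.08 with BaP. Arrays of the last gave 2.04, 2.00 and 2.06 with BF, -0.60, -0.60 and -0.56 with DBA, and 1.51, 1.51 and 1.57 with IND. BF and IND arrays lay well above all others without overlap between them, and 3MC arrays lay below all others.

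SLC7A11 rose 4.09-fold with BF (SE 0.06, adjusted p = 1.27e-17) and 2.89-fold with IND (SE 0.04, adjusted p = 2.19e-07), where the DMSO spot was above background on 2 of 3 arrays. It fell with 3MC to -1.32 ± 0.08 (SD, n = 3) (SE 0.06, adjusted p = 1.23e-13). Without BA array 1 it also rose with BA, at 0.68. A second feature of the gene was above background in both dyes on all 3 arrays with PH and BaP alone, and read -0.54 and -1.23 there, where the brighter one read 0.23 and -0.09. GSR, glutathione reductase, rose with IND alone (0.70) and ranged from -0.51 to 0.28 with the others. The IND value comes from a different feature of GSR. The feature used for the other compounds read 0.55 with IND, short of the 1.5-fold limit.

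In the thioredoxin branch SRXN1 and TXNRD1 were the genes that rose with every compound. SRXN1 encodes sulfiredoxin, which restores peroxiredoxins whose cysteine has been over-oxidised. SRXN1 stood at 1.86, 1.82 and 1.74 with NP, 2.02, 1.75 and 1.92 with PH, and -0.06, 1.32 and 1.23 with BA. It stood next at 2.27, 2.21 and 2.20 with CHR, 0.73, 0.58 and 0.60 with 3MC, and 1.76, 1.99 and 1.90 with BaP. With the remaining compounds it was 3.31, 3.25 and 3.36 with BF, 1.20, 0.92 and 1.04 with DBA, and 3.33, 3.29 and 3.28 with IND. All arrays but BA array 1 were above 0.5. BF and IND arrays overlapped near the top, CHR arrays came next without overlap with the rest, and NP, PH and BaP arrays overlapped one another.

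SRXN1 rose 9.89-fold with BF (3.31 ± 0.06 (SD, n = 3), SE 0.15, adjusted p = 1.58e-14) and 9.83-fold with IND (3.30 ± 0.03 (SD, n = 3), SE 0.04, adjusted p = 5.61e-08). It rose 4.69-fold with CHR, 3.73-fold with PH, 3.69-fold with BaP, 3.5-fold with NP and 2.08-fold with DBA. The smallest rises were 0.64 ± 0.08 (SD, n = 3) with 3MC (SE 0.15, adjusted p = 0.00116) and 0.83 ± 0.77 (SD, n = 3) with BA (SE 0.15, adjusted p = 1.38e-04), where arrays 2 and 3 alone gave 1.28. In the authors' deposited values, where BA is represented by arrays 1 and 2 alone, the BA rise was 0.47 with an adjusted p of 0.0722 by limma and did not pass.

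TXNRD1 encodes the cytosolic thioredoxin reductase, a selenoprotein. TXNRD1 ratios were 1.59, 1.43 and 1.49 with NP, 1.22, 1.25 and 1.11 with PH, and -0.11, 0.89 and 0.97 with BA. The next compounds gave 1.23, 1.22 and 1.19 with CHR, 0.80, 0.76 and 0.74 with 3MC, and 0.85, 0.66 and 0.49 with BaP. The last compounds gave 1.28, 1.37 and 1.40 with BF, 0.81, 0.80 and 0.74 with DBA, and 2.28, 2.30 and 2.33 with IND. The IND arrays lay above all others and the NP arrays came next, above those of BF. TXNRD1 rose 4.94-fold with IND (SE 0.04, adjusted p = 7.93e-08), with 2 of 3 DMSO spots above background, and 2.83-fold with NP (SE 0.12, adjusted p = 4.43e-10).

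The lowest rises of TXNRD1 were 0.59 ± 0.60 (SD, n = 3) with BA (SE 0.12, adjusted p = 4.69e-04) and 0.67 ± 0.18 (SD, n = 3) with BaP (SE 0.12, adjusted p = 4.22e-05). The BA rise was 0.93 without array 1, and was lost without array 2 or 3, at 0.43 and 0.39. In the authors' deposited values, which also lack array 3, it was 0.30 and did not pass. The BaP rise was lost without BaP array 1, at 0.58, and in the authors' deposited values, at 0.58. The DMSO level of TXNRD1 was 8.76 with NP, 10.05 with 3MC and 10.30 with DBA, and 11.81 to 12.42 with the other 5 compounds of the shared design, and its part in the order of the rises was not tested.

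TXN, thioredoxin itself, rose with BF (1.75), IND (1.41), CHR (1.17) and DBA (0.60) and ranged from -0.39 to 0.42 with the others. The DBA rise lay at the fold limit and was lost without DBA array 1, at 0.55. PRDX1, a peroxiredoxin that reduces hydrogen peroxide, rose with IND alone (0.71) and stood at -0.50 with PH. PRDX6, a peroxiredoxin that relies on glutathione, rose with BF (0.60) and fell with NP (-0.62), and both calls were lost in the authors' deposited values (without NP array 1), at 0.53 and -0.50.

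The NADPH genes of the pentose phosphate pathway rose in different sets. TALDO1 encodes transaldolase, of the non-oxidative branch. TALDO1 was at 0.05, -0.12 and -0.13 with NP, 0.99, 1.13 and 0.77 with PH, and -0.14, 0.44 and 0.45 with BA. CHR, 3MC and BaP arrays read 0.996, 1.10 and 1.17 with CHR, -0.17, -0.20 and -0.10 with 3MC, and 0.58, 0.80 and 0.75 with BaP. BF, DBA and IND arrays read 1.38, 1.40 and 1.42 with BF, 0.53, 0.37 and 0.37 with DBA, and 1.46, 1.32 and 1.31 with IND. Arrays of BF and IND overlapped at the top, and NP and 3MC arrays lay near or below 0. Other features of TALDO1, also above background, disagreed there. They read -0.84, 0.58 and 0.02 with NP and -0.48, 0.44 and 0.04 with 3MC.

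TALDO1 rose with BF to 1.40 ± 0.02 (SD, n = 3) (SE 0.08, adjusted p = 1.85e-12), with IND (1.36), CHR (1.09), PH (0.96) and BaP (0.71). TKT, transketolase of the same branch, rose with PH (0.83), NP (0.76) and IND (0.64). PGD, which makes NADPH in the oxidative branch, rose with NP alone (0.76, and 0.54 under median centring, where it no longer passed). ME1, malic enzyme, passed with no compound and ranged from -0.50 with PH to 0.07 with IND, and its spot was above background in neither dye with BF.

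HMOX1, the inducible haem oxygenase that opens the haem ring to biliverdin, carbon monoxide and iron, showed the highest ratio of the list with IND and fell with NP. HMOX1 ratios were -0.87, -0.87 and -0.80 with NP, -0.25, -0.18 and -0.18 with PH, and -0.22, -0.33 and -0.31 with BA. They read 0.83, 0.67 and 0.62 with CHR, -0.32, -0.30 and -0.33 with 3MC, and -0.30, -0.14 and -0.27 with BaP. The remaining ratios were 1.39, 1.34 and 1.21 with BF, 0.16, 0.09 and 0.16 with DBA, and 3.27, 3.82 and 3.89 with IND. Only the arrays of CHR, BF, DBA and IND were above 0, in 4 levels that did not overlap.

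With IND the Cy5 spot of HMOX1 was saturated on all 3 arrays, so its rise was at least 12.7-fold (measured mean 3.66 ± 0.34 (SD, n = 3), SE 0.11, adjusted p = 3.74e-07). HMOX1 rose 2.48-fold with BF (SE 0.04, adjusted p = 1.40e-16) and 1.63-fold with CHR (SE 0.04, adjusted p = 1.05e-11), and fell with NP to -0.84 ± 0.04 (SD, n = 3) (SE 0.04, adjusted p = 6.38e-13). With PH, BA, 3MC, BaP and DBA it stood between -0.32 and 0.14 and did not pass, while SRXN1 rose with each of these. The DMSO level of HMOX1 ranged over no more than 0.60 log2 units between the 8 compounds of the shared design.

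BLVRB, biliverdin reductase B, is also a flavin reductase that uses NADPH. BLVRB ratios were 0.88, 0.86 and 0.86 with NP, 1.39, 1.33 and 1.46 with PH, and -0.13, 0.62 and 0.71 with BA. It lay at 0.89, 0.60 and 0.67 with CHR, 0.89, 0.85 and 0.95 with 3MC, and 1.53, 1.72 and 1.68 with BaP. The other arrays gave 1.28, 1.54 and 1.35 with BF, 0.94, 0.83 and 0.76 with DBA, and 0.92, 1.02 and 1.03 with IND. The BaP arrays were the highest, with PH and BF arrays below or overlapping them. BLVRB rose with 8 compounds, from 0.72 ± 0.15 (SD, n = 3) with CHR to 1.65 ± 0.10 (SD, n = 3) with BaP (3.13-fold, SE 0.10, adjusted p = 3.22e-12), and with BA, at 0.66, when array 1 was left out.

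The DMSO level of BLVRB was also lowest on the PH and BaP arrays, at 9.40 and 9.55, against 10.48 to 11.44 with the other 6 compounds of the shared design. BLVRA, biliverdin reductase A, rose with BF (0.91), BaP (0.82) and 3MC (0.60), the last of which was lost without 3MC array 1, at 0.57.

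Among the enzymes for quinones and epoxides, NQO1 and CBR1 fell with NP and rose with 4 other compounds each. NQO1, a quinone reductase and a standard readout of NRF2, is also induced through AHR. NQO1 ratios were -0.66, -0.63 and -0.57 with NP, -0.18, -0.21 and -0.06 with PH, and -0.03, 0.25 and 0.32 with BA. The next were 0.77, 1.07 and 0.99 with CHR, -0.54, -0.43 and -0.52 with 3MC, and -0.43, -0.10 and -0.48 with BaP. The last were 1.09, 1.11 and 1.12 with BF, 0.69, 0.59 and 0.61 with DBA, and 1.67, 1.69 and 1.59 with IND. IND arrays lay above all others, BF arrays lay above those of CHR, and CHR arrays lay above those of DBA. All arrays of NP, PH, 3MC and BaP were below 0.

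NQO1 rose 3.13-fold with IND (SE 0.04, adjusted p = 1.98e-07), 2.15-fold with BF (SE 0.07, adjusted p = 2.17e-12), 1.92-fold with CHR and 1.55-fold with DBA. It fell with NP to -0.62 ± 0.05 (SD, n = 3) (SE 0.07, adjusted p = 5.33e-08), a call that was lost in the authors' deposited values, which lack NP array 1, at -0.55. With BaP it was -0.34 ± 0.20 (SD, n = 3) and did not pass, although CYP1A1, the AHR target that oxidises benzo[a]pyrene, rose with BaP to 5.70 and SRXN1 rose to 1.88.

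CBR1, a carbonyl reductase that also acts on quinones, gave -1.01, -1.09 and -1.08 with NP, 0.21, 0.30 and 0.13 with PH, and 0.31, 0.31 and 0.29 with BA. It gave 0.54, 0.78 and 0.74 with CHR, -0.40, -0.49 and -0.48 with 3MC, and 0.83, 0.75 and 0.87 with BaP. It then gave 0.77, 0.76 and 0.86 with BF, -0.25, -0.35 and -0.28 with DBA, and 0.62, 0.88 and 0.78 with IND. NP arrays were the lowest, 3MC and DBA arrays were also below 0, and BaP, BF, IND and CHR arrays overlapped. CBR1 rose most with BaP (0.81 ± 0.06 (SD, n = 3), SE 0.05, adjusted p = 1.10e-12) and fell with NP to -1.06 ± 0.05 (SD, n = 3) (SE 0.05, adjusted p = 2.73e-14). EPHX1, microsomal epoxide hydrolase, which turns arene oxides into dihydrodiols, rose with IND (1.14), PH (0.98), NP (0.70) and CHR (0.61). The NP call was lost under median centring, at 0.52, and the CHR call without CHR array 1, at 0.56. With BF it stood at 0.00 after loess and at 0.82 under median centring.

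The enzymes that remove peroxide and superoxide went both ways, with 11 rises (20.4%) and 7 falls (13.0%) among 54 pairs of gene and compound, where 8.80% and 10.4% of all such pairs over all genes tested rose and fell. CAT, catalase, held 5 of the falls. CAT ratios were -0.38, -0.42 and -0.43 with NP, -1.08, -0.999 and -0.98 with PH, and -0.26, -0.53 and -0.53 with BA. Those with CHR, 3MC and BaP were -0.80, -0.62 and -0.52 with CHR, -0.56, -0.51 and -0.47 with 3MC, and -1.06, -0.83 and -1.17 with BaP. Those with BF, DBA and IND were -0.26, -0.16 and -0.34 with BF, -0.78, -0.81 and -0.80 with DBA, and -0.79, -0.69 and -0.78 with IND. Every one of the 27 arrays was below 0, the lowest being those of PH and BaP, which overlapped.

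CAT fell with BaP to -1.02 ± 0.17 (SD, n = 3) (SE 0.06, adjusted p = 2.76e-12), with PH to -1.02 ± 0.05 (SD, n = 3) (SE 0.06, adjusted p = 5.57e-12), with DBA to -0.80 ± 0.01 (SD, n = 3), with IND to -0.75 ± 0.05 (SD, n = 3) and with CHR to -0.65 ± 0.14 (SD, n = 3). Median centring gave -0.49 with CHR and -0.44 with DBA, short of the fold limit, and the CHR call was also lost without CHR array 1, at -0.57.

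GPX1, the most widely expressed glutathione peroxidase, is a selenoprotein. GPX1 ratios were 0.42, 0.35 and 0.31 with NP, 0.60, 0.41 and 0.24 with PH, and 0.07, 0.75 and 0.70 with BA. They came to 1.77, 1.51 and 1.69 with CHR, 0.93, 0.98 and 1.09 with 3MC, and 2.19, 2.35 and 2.27 with BaP. The other compounds gave 0.45, 0.52 and 0.36 with BF, 1.44, 1.19 and 1.04 with DBA, and 0.22, 0.40 and 0.31 with IND. BaP arrays were the highest, followed by CHR arrays and then by those of DBA and 3MC. With BaP the Cy5 spot was saturated on all 3 arrays and the rise was at least 4.82-fold (measured mean 2.27 ± 0.08 (SD, n = 3), SE 0.10, adjusted p = 1.07e-14). GPX1 rose 3.16-fold with CHR (SE 0.10, adjusted p = 2.84e-12), 2.33-fold with DBA and 2-fold with 3MC, and it was the highest of the 33 genes with BaP, DBA and 3MC. With IND and BF, where the list as a whole was highest, GPX1 stood at 0.31 and 0.44 and did not pass. Without BA array 1 it rose with BA, at 0.73.

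GPX4 encodes the peroxidase that reduces lipid hydroperoxides in membranes. GPX4 values were 0.89, 0.74 and 0.75 with NP, 0.52, 0.52 and 0.49 with PH, and 0.30, -0.08 and -0.16 with BA. CHR, 3MC and BaP gave -0.19, -0.37 and -0.43 with CHR, 0.05, -0.14 and 0.03 with 3MC, and 0.20, 0.50 and 0.29 with BaP. BF, DBA and IND gave -1.20, -1.13 and -1.17 with BF, 0.14, 0.06 and 0.08 with DBA, and -0.32, -0.19 and -0.06 with IND. BF arrays were below all others and NP arrays were the highest. GPX4 fell with BF to -1.17 ± 0.03 (SD, n = 3) (SE 0.07, adjusted p = 1.40e-12) and rose with NP to 0.79 ± 0.08 (SD, n = 3) (SE 0.07, adjusted p = 1.91e-09). The fall with BF was -0.29 under median centring and no longer passed. The DMSO level of GPX4 was 11.41 and 12.01 on PH and BaP arrays and 13.61 to 14.72 with the other 6 compounds.

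GPX2, the gastrointestinal glutathione peroxidase and a target of NRF2, rose with CHR (1.17 ± 0.01 (SD, n = 3)) and IND (0.69 ± 0.06 (SD, n = 3)) and fell with BF (-1.08 ± 0.09 (SD, n = 3)), and the fall was -0.15 under median centring, with no call. SOD1, the copper-zinc superoxide dismutase, rose with BF (1.27, its Cy5 spot saturated on 2 arrays) and IND (1.004). SOD2, the mitochondrial manganese enzyme, rose with IND (0.94) and with BA (0.70, 0.97 without array 1, and 0.57 and 0.55, with no call, without array 2 or 3).

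Of the remaining targets, PIR encodes pirin, an iron-containing nuclear protein, and rose with the compounds that raised HMOX1: CHR (1.01 ± 0.05 (SD, n = 3)), BF (0.96 ± 0.05 (SD, n = 3)) and IND (1.24 ± 0.09 (SD, n = 3)). OSGIN1, an oxidative stress-induced growth inhibitor, rose with IND to 3.07 ± 0.03 (SD, n = 3) (8.39-fold, SE 0.04, adjusted p = 5.61e-08), and with PH (0.82), NP (0.82) and 3MC (0.67), and with BA at 0.59 when array 1 was left out. It was 0.29 with BF, with no call, although BF and IND gave near-equal ratios of SRXN1.

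The compounds of the shared design were set against one another by limma contrasts, with 8 pairs chosen and p-values adjusted over all pairs and genes. IND was on another design, normalised apart, and was not compared by test. Across the 8 compounds 31 of the 33 genes differed by the F test with a range of at least 1.5-fold, as did 74.7% of all genes, and ME1 and OSGIN1 did not. Because pairs share arrays, their results are not independent.

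Chrysene and benzo[a]anthracene are isomers, and 11 of the 33 genes were higher with chrysene. None passed as lower, although 9 were lower at an unadjusted p under 0.05 by limma with no fold limit. Of all genes, 18.7% differed in either direction. Without BA array 1, 9 of the 11 still passed as higher and ME1 and SOD2 passed as lower (-0.65 and -0.69), where 17.8% of all genes differed. The differences, in log2 units of CHR minus BA, were 1.40 (SE 0.21, adjusted p = 1.07e-05) for SRXN1, 1.35 (SE 0.14, adjusted p = 5.28e-08) for GCLM, 1.15 (SE 0.14, adjusted p = 4.08e-07) for GPX1 and 0.99 (SE 0.06, adjusted p = 3.05e-11) for HMOX1. When BA array 1 was left out these were 0.95, 1.07, 0.93 and 1.03, in the same order, and TXNRD1 and PRDX1 no longer passed, at 0.28 and 0.47. For SLC7A11 the difference was -0.23, with a 95% interval of -0.41 to -0.05, and for BLVRB it was 0.32, with a 95% interval of 0.03 to 0.61, neither of which passed. With the mean of features SLC7A11 and MAFK passed as lower with CHR, at -0.65 and -0.996.

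Benzo[k]fluoranthene has a fused ring more than chrysene and exceeded it at 12 genes, with 4 lower, where 28.3% of all genes differed. BF minus CHR was 1.71 (SE 0.08, adjusted p = 5.20e-13) for SLC7A11, 1.51 (SE 0.14, adjusted p = 9.29e-09) for GCLM and 1.51 (SE 0.08, adjusted p = 9.29e-13) for MAFG. With the mean of features, NFE2L2, MAFK and SQSTM1 no longer passed as higher, at 0.01, 0.56 and 0.26. GPX2 went the other way, at -2.26 (SE 0.09, adjusted p = 1.48e-14), as did GPX1, GPX4 and EPHX1. The BF values of GPX2, GPX4 and EPHX1 depended on loess. Under median centring the falls of GPX2 and GPX4 with BF were lost, and EPHX1 with BF was higher than after loess. NQO1 differed by 0.17, with a 95% interval of -0.03 to 0.36, and TXNRD1 by 0.14, with a 95% interval of -0.21 to 0.49, without a call.

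Benzo[a]pyrene and benzo[k]fluoranthene are also isomers and differed at 21 genes, 16 of them lower with BaP, where 35.3% of all genes differed. BaP minus BF was -2.33 (SE 0.14, adjusted p = 1.14e-11) for GCLM, -2.13 (SE 0.08, adjusted p = 1.84e-14) for SLC7A11, -1.79 (SE 0.10, adjusted p = 1.80e-12) for GCLC and -1.55 (SE 0.06, adjusted p = 2.93e-14) for HMOX1. The 5 higher with BaP were PGD, KEAP1, GPX1, GPX2 and GPX4, and the falls of GPX2 and GPX4 with BF were lost under median centring. GPX1 differed by at least 1.82 (SE 0.14, adjusted p = 4.12e-10), since its BaP value is a lower bound, and KEAP1 by 1.35 (SE 0.08, adjusted p = 1.45e-11). BLVRB differed by 0.26, with a 95% interval of -0.04 to 0.55. Of the 16 lower with BaP, NFE2L2 and TALDO1 no longer passed with the mean of features, at -0.06 and -0.49.

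BaP against PH differed at 6 genes, 3 in each direction, where 21.8% of all genes differed. GCLC was lower with BaP, with a difference of -1.86 (SE 0.10, adjusted p = 9.61e-13), as were NFE2L2 and MAFG, and GPX1, PRDX1 and CBR1 were higher. With the mean of features NFE2L2 stood at -0.49 and no longer passed, and MAFG passed still. SRXN1 differed by -0.02, with a 95% interval of -0.46 to 0.43, and KEAP1 by -0.10, with a 95% interval of -0.27 to 0.07. Neither passed, while CYP1A1 was 5.70 with BaP and 2.63 with PH.

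Phenanthrene has a ring more than naphthalene and exceeded it at 8 genes, with 2 lower, where 23.3% of all genes differed. PH minus NP was 2.11 (SE 0.07, adjusted p = 1.58e-15) for NFE2L2, 1.27 (SE 0.07, adjusted p = 9.54e-13) for CBR1 and 1.03 (SE 0.12, adjusted p = 2.94e-07) for TALDO1. The NFE2L2 difference rests on the brighter of its features. The other went the opposite way, at -1.12 with PH and -0.01 with NP, and the mean of both gave 0.49, with no call. The differences of SQSTM1, TXN and SLC7A11 were 0.52, 0.29 and 0.07, with no call, for the mean of their features. That of TALDO1 was 0.94 for the mean of its features and still passed, although 1 of them read 0.81 with PH and 0.58 with NP. PRDX1 and CAT were lower with PH. SRXN1 differed by 0.09, with a 95% interval of -0.35 to 0.53, which did not pass.

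DBA, 3MC and NP share the scanner layout and the lowest signals. DBA against 3MC differed at 6 genes, 5 of them higher with DBA, where 2.29% of all genes differed. DBA minus 3MC was 1.13 (SE 0.10, adjusted p = 2.60e-09) for NQO1, 0.85 (SE 0.14, adjusted p = 2.83e-05) for GCLM, 0.74 (SE 0.08, adjusted p = 2.16e-07) for SLC7A11, 0.71 (SE 0.15, adjusted p = 3.31e-04) for TXN and 0.64 (SE 0.10, adjusted p = 8.54e-06) for GCLC, and NFE2L2 was lower, at -0.59 (SE 0.07, adjusted p = 4.21e-07). With the mean of features SLC7A11 (0.41), TXN (0.52) and NFE2L2 (-0.18) no longer passed. The count was 14 under median centring. Neither compound has its dose in the labels, and both raised CYP1A1, to 3.45 and 2.90.

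Against naphthalene, DBA was higher at 6 genes and lower at 6, where 11.3% of all genes differed, and 3MC was higher at 3 and lower at 9, where 8.21% differed. Higher with DBA than with NP were NQO1, by 1.25 (SE 0.10, adjusted p = 5.14e-10), TXN, HMOX1, GPX1, SOD1 and CBR1. Lower with 3MC than with NP were GCLC, with a difference of -1.36 (SE 0.10, adjusted p = 1.39e-10), SRXN1, with -1.17 (SE 0.21, adjusted p = 8.85e-05), TXNRD1, SLC7A11, SQSTM1, MAFG, PGD, GSR and GPX4. With the mean of features SLC7A11 (-0.47), SQSTM1 (-0.45) and GSR (-0.54) no longer passed as lower with 3MC, nor NFE2L2 as higher (0.30), nor SOD1 as higher (0.50) or MAFK as lower (-0.40) with DBA. NP held rises of SRXN1, TXNRD1 and SQSTM1 of 1.81, 1.503 and 1.72 beside falls of NFE2L2, HMOX1, NQO1, CBR1 and PRDX6.

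The AHR targets CYP1A1 and CYP1B1 give the other xenobiotic response on the same arrays. CYP1A1 rose with all compounds but NP, from 2.63 with PH to at least 74.9-fold with BF and 71.4-fold with IND, where its Cy5 spot was saturated. With NP it was 0.47 and did not pass, and the 7 AHR targets listed held no call with NP, while 14 of the 33 antioxidant genes rose. CYP1B1 rose with BF (6.40), IND (4.41), BaP (2.54), CHR (1.58) and BA (0.93) and stood at 0.02 with 3MC and 0.18 with PH. All 7 AHR targets rose with CHR, BaP and IND and 6 with BA and BF. With BA array 1 left out, 6 still rose with BA, CYP1A1 to 6.24 from 4.36 and CYP1B1 to 1.42. With PH and 3MC, CYP1A1 was the 1 target of 7 that rose, where 15 and 8 of the 33 genes rose.

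The levels behind the ratios differed between arrays of different compounds. Over the 8 compounds of the shared design, the DMSO level of the 33 genes had a median range of 1.40 log2 units, and 13 of the 33 (39.4%) spanned at least 2, as did 36.5% of all genes, whose median range was 1.58. The widest were TXNRD1 (3.67), GPX4 (3.31), OSGIN1 (3.29), KEAP1 (3.25) and GSR (3.11). GSR in DMSO stood at 10.31, 10.00 and 9.65 with NP, 3MC and DBA and at 12.13 to 12.77 with the other 5. SRXN1 ranged over 1.15 and GCLM over 0.86, both lowest in DMSO on the BF arrays, and MAFF over 0.59, highest there. NFE2L2 in DMSO was lowest with BF (12.41) and highest with DBA (14.09). GCLC was lowest with BF (11.06) and highest with 3MC (12.82), and CBR1 lowest with BaP (10.9) and highest with NP (12.96). NQO1 went the other way, lowest with NP (10.96), where it fell, and highest with BF (12.08), where it rose. The part of these levels in the ratios was not tested. Scan settings and DMSO cultures cannot be told apart here.

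**Figure D4:**
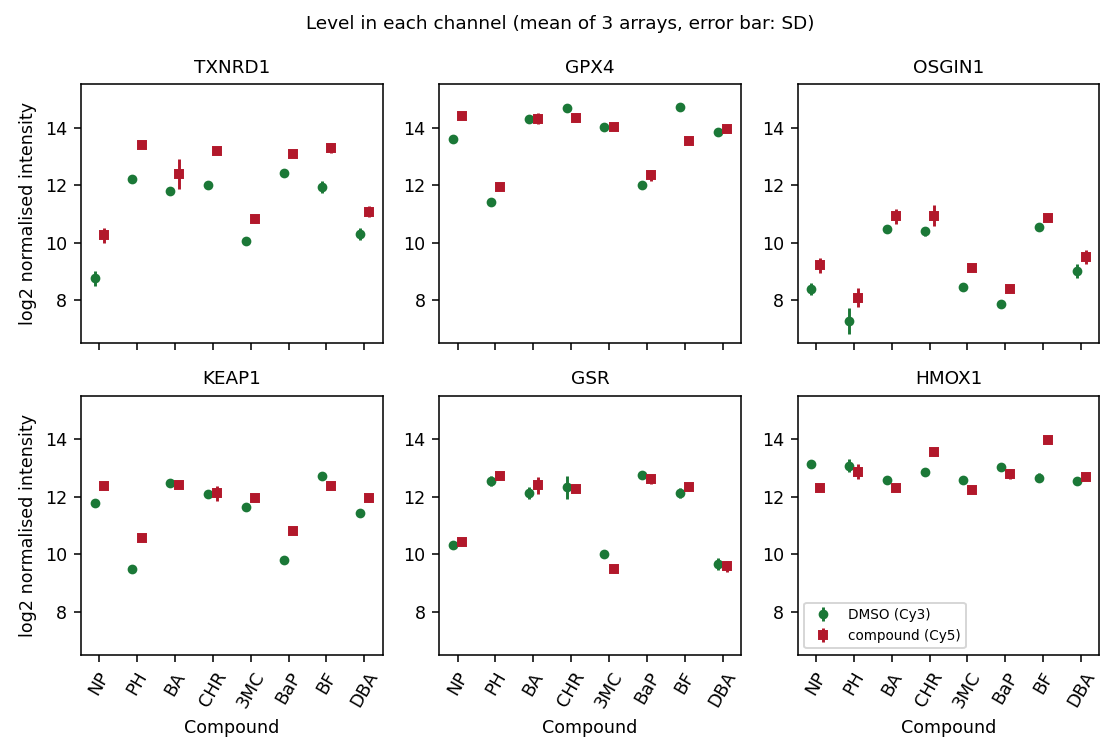
log2 normalised intensity in the DMSO channel (circles) and the compound channel (squares), mean of 3 arrays with SD, of the 5 genes with the widest DMSO range and of HMOX1, with the 8 compounds of the shared design. KEAP1 and GPX4 are low in both channels on PH and BaP arrays, TXNRD1 and GSR on NP, 3MC and DBA arrays, and HMOX1 in DMSO stays within 0.60.

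Wider lists of pathway genes, drawn up with earlier results known, were counted the same way. Of 17 genes for detoxification and iron, 16 were tested, and 12 rose with BF and with IND, 9 with CHR, 8 with PH, 5 with NP and DBA, 3 with BaP and BA and 1 with 3MC, with no more than 2 falls, and the shares of all genes given above were 16.0% with BF, 10.5% with IND and 11.7% with CHR. Without BA array 1, 5 rose with BA. AKR1B10, an aldo-keto reductase, rose with 7 compounds, to 3.40 with BF, 2.73 with IND and 2.38 with CHR. AKR1C1 rose with 6, to 3.05 with IND as measured at a saturated spot, so that the rise was at least 8.26-fold, but its probe may also read near-identical AKR1C genes. SLC48A1, a haem transporter, rose with 6, most with CHR (1.81).

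Of 9 genes that supply glutathione, 4 rose with BaP, 3 with PH and IND, and 2 or fewer with the others, where 15.1% of all genes rose with BaP, 10.6% with PH and 10.5% with IND. SLC3A2, the heavy chain of the cystine antiporter, rose with 5 compounds, most with BF (2.20), PH (2.06) and IND (1.97). GSS, glutathione synthetase, rose with BaP (1.41), CHR (0.81), 3MC and DBA. SLC1A5, a glutamine carrier, rose with NP (1.20), PH and BaP and fell with BF (-1.41).

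Of 11 NADPH supply genes beyond the list, 5 fell and 1 rose with BF, where 20.4% of all genes fell and 16.0% rose, and 4 rose and none fell by limma with NP, where 6.71% rose and 12.6% fell. IDH1, a cytosolic source of NADPH, fell with 5 compounds, most with BaP (-1.42), and IDH2, its mitochondrial counterpart, fell with BF (-2.88) and IND (-1.03) and rose with NP and PH.

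Among 19 further thioredoxin and peroxide genes, falls and rises numbered 4 and 0 with NP and with DBA, 7 and 3 with BF and 2 and 1 with 3MC, and over all genes falls also outnumbered rises with each of these compounds. These falls were 21.1% of the list with NP and with DBA, 36.8% with BF and 10.5% with 3MC. Of all genes 12.6%, 7.26%, 20.4% and 7.48% fell, in the same order. Falls and rises numbered 2 and 5 with BaP, 3 and 5 with IND, 3 and 3 with PH and with CHR, and 1 and 1 with BA. MSRA, a methionine sulfoxide reductase, fell with 7 compounds, to -2.37 with BaP and -2.14 with CHR, and GPX7, a peroxidase of the endoplasmic reticulum, fell with 5. GLRX, glutaredoxin, rose with 6, most with BF (2.06). Of 13 partners and regulators of NRF2, no more than 3 moved one way with any compound. NFE2L3 fell with NP (-1.03), IND and BF. CUL3, the ubiquitin ligase scaffold that KEAP1 serves, fell with PH (-0.84), BaP (-0.75) and IND (-0.63), and BACH1, a repressor at NRF2 target genes, rose with PH (0.77), BF and CHR.

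Markers of other cell types were also read. Of 3 leukocyte markers, CD68, also a lysosomal protein, rose with 7 compounds, to 1.62 with BF, CD14 rose with CHR (1.38), BA (1.002) and PH (0.92), and PTPRC, the pan-leukocyte marker, passed with none and stayed within 0.18 of 0. Of 4 fibroblast markers, ACTA2 rose with 6, to 2.08 with BaP, PDGFRB fell with 5, to -1.71 with CHR, and COL1A1 and COL3A1 passed with none. Of 3 endothelial markers, VWF rose with CHR (1.25), BaP (1.14) and 3MC (0.78), PECAM1 fell with CHR (-1.12), BaP (-0.97) and BA (-0.67), and CDH5 passed with none. The part of any of these in the results above was not tested.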

How the data were processed

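The scanner output as deposited holds intensity values per spot in both dyes, the percent of saturated pixels, and a flag score, per the file headers, and was neither normalised nor background-subtracted. The authors also deposited log2 ratios, whose normalisation is not given in the sources used here. Of their 27 columns, 20 matched the spot order of an array and served as an alternative, and those of IND, BA array 3, CHR array 2, NP array 1 and 3MC array 3 did not.

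The ratios were computed with R 4.3.3 and limma 3.58.1 (Python 3.11.15, pandas 2.3.3, numpy 2.4.6 and matplotlib 3.10.9 for tables and drawings). Control spots and spots with a flag of -75 or lower were left out. Spot means were corrected for the local background median with normexp at an offset of 50 and normalised within arrays by loess, with no scaling between arrays. Channel levels alone were scaled by Aquantile. Replicate spots were averaged. To be tested, a probe had to exceed background by over 2 background SDs in either dye on 2 or more arrays of any compound, and the brightest probe stood for its gene. Where a dye was saturated on all 3 arrays, the change is a lower bound, taken from means of normalised log2 values. The number of arrays limits the precision.

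One mean per compound was fitted to the 24 arrays of the shared design together and to IND alone. Each mean was tested against 0 and compounds by 8 contrasts, both 2-sided, and by an F test, on simulated ratios first. Arrays with the same number did not deviate together (their residuals correlated at 0.0029 on average), so the fit has no block. The members and the wider lists were chosen with earlier results of these data known. Values on every array are given for NFE2L2, KEAP1, HMOX1, NQO1, SRXN1, GCLM, TXNRD1 and SLC7A11, for genes called with at least 5 compounds and for the highest and lowest gene of each compound. Up to 3 genes per wider list are named, those called with the most compounds, and 1 gene that this rule names is not reported here. The alternatives were plain background subtraction, median centring, Aquantile scaling, no filter, the mean of a gene's probes, the adjusted p alone, the authors' values, a replicate block, fits per scanner layout and leaving out each array.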

Additional observations from a re-analysis of the deposited data

Results flagged for a closer look

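No group held the 4 arrays that a search for outlying samples needs. Of the 33 genes, 9 rose with at least 1 compound and fell with another, and limma's F test over the 8 compounds of the shared design called all 9 different, each with 3 arrays per compound. Their means, in log2 ratio, spanned a range of 3.36 for SLC7A11 (3MC to BF, adjusted p = 1.22e-16), 2.39 for NFE2L2 (NP to BF, adjusted p = 8.83e-17) and 2.28 for GCLC (3MC to PH, adjusted p = 8.66e-15). For the glutathione peroxidases it was 2.26 for GPX2 (BF to CHR, adjusted p = 2.02e-13) and 1.96 for GPX4 (BF to NP, adjusted p = 2.59e-12). It was 2.16 for HMOX1 (NP to BF, adjusted p = 3.67e-16), 1.87 for CBR1 (NP to BaP, adjusted p = 5.62e-16), 1.73 for NQO1 (NP to BF, adjusted p = 2.46e-13) and 1.21 for PRDX6 (NP to BF, adjusted p = 5.54e-08). NP was the lowest compound for 5 of the 9, and the range of NFE2L2 rests on 1 of its 2 features. Several calls behind this list depended on the processing. The falls of GPX2 and GPX4 with BF were lost under median centring, and that of GCLC with 3MC under several settings. The fall of NQO1 with NP and both calls of PRDX6 were lost in the authors' deposited values.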

How the results depend on the processing

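Counts of the 33 genes under Aquantile scaling, no filter, fits per scanner layout and the replicate block (array number 1 to 3 as a block, which left for example 14 rises with NP and 20 with BF) stayed within 1.5 times the main count throughout. Without the fold limit, at the adjusted p alone, rises numbered 23 with PH, 20 with BA, 14 with 3MC, 22 with BaP and 24 with DBA, falls 9 with NP, 6 with PH, 2 with BA, 5 with CHR, 10 with 3MC, 6 with BaP, 5 with BF, 5 with DBA and 3 with IND, and differing genes 16 for BaP against PH, 26 for CHR against BA, 25 for BF against CHR, 15 for DBA against 3MC, 21 for DBA against NP, 24 for 3MC against NP and 24 for PH against NP. Median centring gave 14 rises with BA and 20 with DBA, 0 falls with CHR and BF, 1 with 3MC and DBA, and 14 differing genes for DBA against 3MC. Under median centring the share of calls over all genes that were rises went from 34.8% to 17.1% with NP, from 60.1% to 72.8% with BaP, from 44.0% to 56.8% with BF and from 29.8% to 71.1% with DBA. Plain subtraction gave 2 falls with PH and 1 with 3MC. The mean of a gene's probes gave 2 falls with CHR, 1 with 3MC and 3 with BaP, 3 differing genes for DBA against 3MC and 6 for PH against NP. The authors' deposited values, which hold 2 arrays for BA, NP, CHR and 3MC and so change the arrays too, gave 1 rise with BA, 3 falls with NP, 0 with CHR and 1 with 3MC. Leaving out 1 array at a time moved the rises with BA between 1 and 9. Sign reversed for EPHX1 with BF under median centring (0.82, not called in the main setting) and for NFE2L2 with PH (-0.25) and BF (-0.68), both called, under the mean of probes; the cause was not tested. Under the mean of probes 10 values changed sign in all, the other 8 uncalled in the main setting, among them NFE2L2 with BA (-0.25), SLC7A11 with PH (-0.15) and CHR (-0.20) and MAFK with CHR (-0.53). DBA arrays had the lowest signal over background, which limits dim genes there.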
